A study of Caenorhabditis elegans with 2 samples.

Results

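The replication and cell cycle machinery of the nematode Caenorhabditis elegans is followed here as 50 named genes out of 19985 protein-coding genes. All 50 were found in the annotation by symbol. The list was drawn up by role: 24 genes act at the replication fork, 14 are cyclins, cyclin-dependent kinases (CDKs), E2F-type factors and their regulators, and 12 act in mitosis at the kinetochore or in cytokinesis. The data are chromatin immunoprecipitation sequencing (ChIP-seq) peaks of a tagged protein, and a gene was given every peak summit within 2000 bp of any of its transcription start sites (TSSs). The precipitated protein is itself on the list: Y53F4B.3, annotated as pole-4 (WBGene00013150), takes its name from a small subunit, with a histone fold, of the leading-strand DNA polymerase epsilon.

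The single group comprised whole young adults aged 64 h of strain RW12270, in 2 biological replicates. Its allele, st12270, is a CRISPR insertion that puts TY1, EGFP and 3xFLAG on Y53F4B.3 at the gene's own place on chromosome II, and chromatin sheared by sonication was precipitated with an antibody against GFP. The worms had been bleached and starved as first-stage larvae to synchronise them. Untagged worms and input chromatin were not analysed here, and whole animals mix germline, embryos in the uterus and somatic tissue, which the peaks cannot tell apart.

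For either replicate there is a long ranking of candidate peaks and a short thresholded list, and both also exist in a larger and a conservative version that draw on the 2 replicates together. A peak in a thresholded list is called listed here, and a ranked peak outside it a candidate. The larger set listed 465 of 9477 ranked peaks, the conservative set 437 of 12529, replicate 1 listed 287 of 18181 and replicate 2 listed 248 of 27101. Each peak carries the authors' signal value, which serves here to rank peaks within a list. The larger and conservative rankings give the same signal at each of the 6159 summits they share, while no common scale is stated for the replicates' own lists. It also carries the irreproducible discovery rate (IDR), low where a peak's rank is reproducible and at most 0.01 for every listed peak. Peak lists hold no read counts, so the depth behind them is unknown. Positions are on assembly ce11 (WBcel235) and are counted from 1.

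Before a cell divides it copies its DNA once and then parts the copies. Origins are licensed when the origin recognition complex and its helpers load the MCM helicase, which S-phase kinases and the GINS complex turn into an active fork; polymerases, the sliding clamp and a single-strand binding protein then copy the strands. Cyclin-CDK pairs time these steps, and E2F-DP factors held back by the retinoblastoma family control the transcription of many S-phase genes. In mitosis the kinetochore couples each chromosome to the spindle, and the central spindle directs cytokinesis. In adult worms cell division is largely confined to the germline and to the embryos.

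Of the 50 members, 11 had a listed peak of the larger set within reach of a TSS, which is 22%, against 2.66% of all protein-coding genes. A further 22 had candidates only and 17 had none. Any ranked peak at all was found near 33 members, or 66.0%, against 33.0% of all genes. Among genes with any ranked peak, 11 of the 33 members had a listed one, against 8.06% of all such genes. The share of listed members was thus above the background at both steps. Since the members were chosen with earlier results of these data in view, these shares are a description and were not tested. The number of start sites per gene was no higher for members, with a mean of 1.28 for members and 1.49 for all genes.

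**Figure D1:**
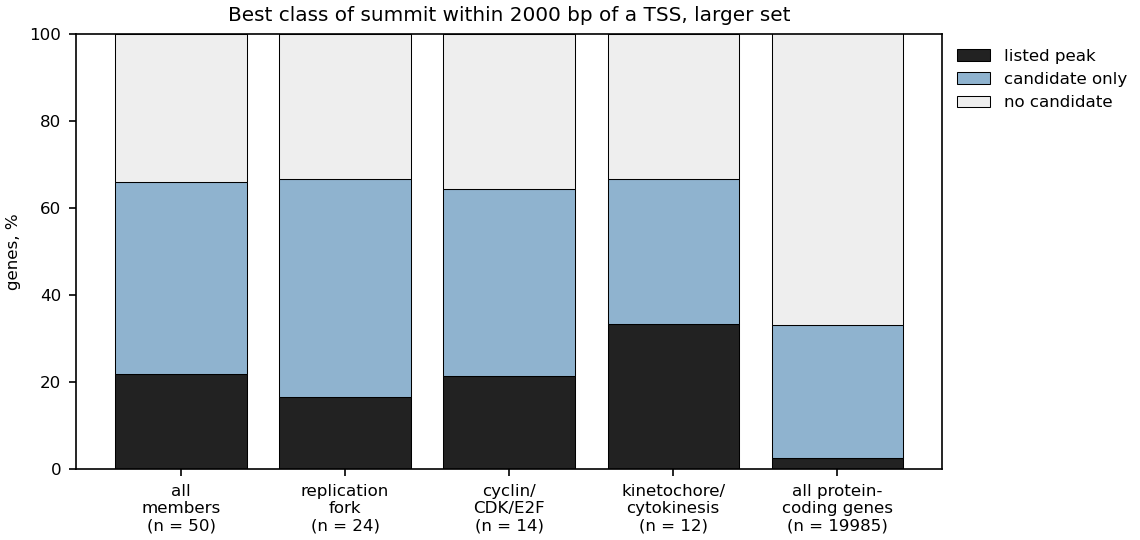
Share of genes, in percent, whose best summit within 2000 bp of a TSS is a listed peak, a candidate only or absent in the larger set, for all members, the 3 role groups and all protein-coding genes. The listed share is 22% of all members, 16.7%, 21.4% and 33.3% of the role groups from left to right, and 2.66% of all genes.

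The 3 role groups each contributed. The listed members were 4 of the 24 replication fork genes (16.7%), 3 of the 14 cyclin, CDK and E2F genes (21.4%) and 4 of the 12 kinetochore and cytokinesis genes (33.3%). The share with any ranked peak was nearly level between the groups, at 66.7%, 64.3% and 66.7% in the same order. With 3 or 4 listed genes a group, 1 gene more or less moves a share by several points, and differences between the groups were not tested. By finer role, the listed genes were 1 of 6 MCM subunits, 1 of 3 GINS subunits, 1 of 2 single-strand binding subunits, 1 of 2 ribonucleotide reductase subunits, 2 of 5 cyclins, 1 of 4 genes of the E2F, DP and retinoblastoma families, 3 of 6 kinetochore genes and 1 of 2 central spindle genes. No listed peak lay near the 4 origin licensing genes, the 4 clamp and clamp loader genes, the 3 polymerase and ligase genes, the 3 CDKs, the 2 CDK regulators or the 4 mitotic kinases.

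**Figure D2:**
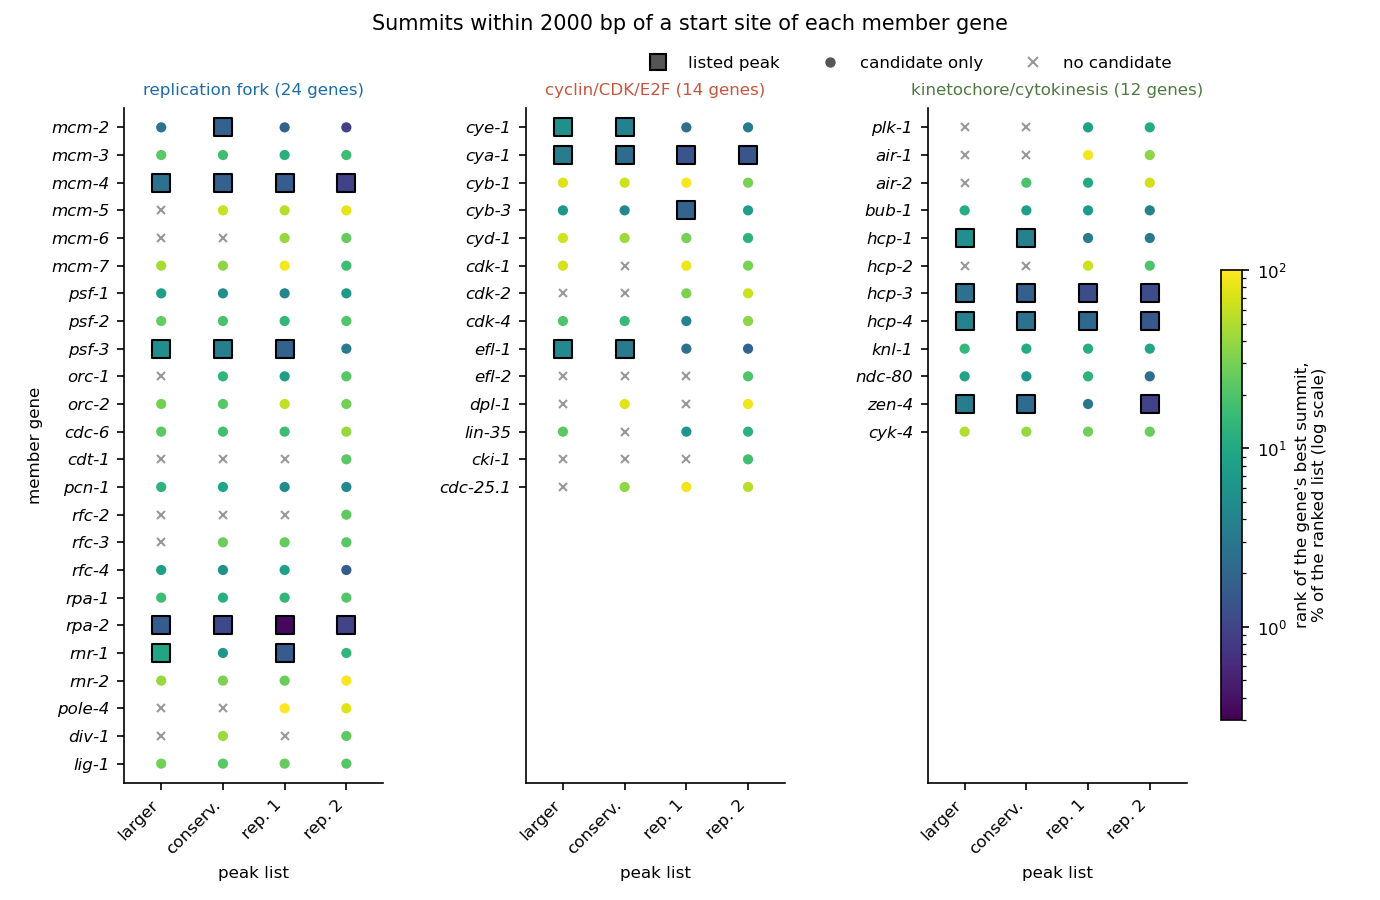
Each of the 50 members (rows, by role group) in the larger and conservative sets and in the lists of replicates 1 and 2 (columns). Squares mark a listed peak, dots a candidate only and crosses no ranked peak within 2000 bp of a TSS; colour gives the rank of the gene's best summit as a percentage of the ranked list, on a log scale. Squares appear for 13 genes in at least 1 list, and replicate 2 has no cross.

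In the conservative set the count was again 11, or 22%, against 2.72% of all genes. Any ranked peak was found near 38 members (76.0%), against 40.6% of all genes. The MCM gene mcm-2 joined the listed genes there and the reductase gene rnr-1 dropped out. Replicate 1 listed peaks near 8 members, or 16.0%, against 1.87% of all genes, and replicate 2 near 6, or 12%, against 1.31%. Across the 4 lists 13 members had a listed peak, against 3.48% of all genes. Only rpa-2, mcm-4, hcp-3, hcp-4 and cya-1 were listed in both replicates, which is 10% of members against 0.836% of all genes. Candidates were far more common: replicate 1 ranked a peak near 44 members (88%, against 56.5% of all genes) and replicate 2 near all 50 (100%, against 70.5%). Most genes of the genome had a candidate in these lists too.

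Sequence is shown for the 8 loci with a listed peak on chromosomes II to V, so that the summits the counts rest on can be read. Each run is 151 bases of the RefSeq genome sequence of WBcel235, written 5′ to 3′ on the strand of the gene, with the summit of the peak as its 76th base. Capitals mark E2F-type words (TTTCCCGC, TTTCGCGC, TTTGCCGC or TTTGGCGC) and the word GCTCCA, each searched on both strands, so that a capital run may be the reverse complement of the word. The kinetochore and cytokinesis loci are hcp-3 (III:9617005-9617155, minus strand), hcp-1 (V:6593843-6593993, plus strand) and zen-4 (IV:6117908-6118058, plus strand).
hcp-3: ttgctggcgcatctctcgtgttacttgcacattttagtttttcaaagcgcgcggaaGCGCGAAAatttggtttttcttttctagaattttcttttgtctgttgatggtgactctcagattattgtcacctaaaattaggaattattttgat
hcp-1: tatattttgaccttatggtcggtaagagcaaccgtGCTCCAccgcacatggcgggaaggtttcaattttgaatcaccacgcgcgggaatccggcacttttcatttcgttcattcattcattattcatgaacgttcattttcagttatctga
zen-4: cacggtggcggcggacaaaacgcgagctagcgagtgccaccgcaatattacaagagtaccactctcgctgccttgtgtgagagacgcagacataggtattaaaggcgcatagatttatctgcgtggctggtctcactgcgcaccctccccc
The cyclin and E2F loci are efl-1 (V:16965801-16965951, minus strand), cya-1 (III:9111011-9111161, minus strand) and cyb-3 (V:15395488-15395638, plus strand).
efl-1: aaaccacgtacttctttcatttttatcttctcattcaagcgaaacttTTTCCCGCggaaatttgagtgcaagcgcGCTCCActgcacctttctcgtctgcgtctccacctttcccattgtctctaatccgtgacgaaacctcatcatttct
cya-1: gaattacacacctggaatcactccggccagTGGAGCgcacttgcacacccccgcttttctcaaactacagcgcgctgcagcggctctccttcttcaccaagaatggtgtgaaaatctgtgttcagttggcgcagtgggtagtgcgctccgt
cyb-3: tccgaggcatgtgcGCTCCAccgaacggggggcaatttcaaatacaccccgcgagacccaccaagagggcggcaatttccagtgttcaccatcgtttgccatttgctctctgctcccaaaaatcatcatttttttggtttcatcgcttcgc
The replication loci are rnr-1 (III:9228846-9228996, minus strand) and mcm-2 (II:12006811-12006961, minus strand).
rnr-1: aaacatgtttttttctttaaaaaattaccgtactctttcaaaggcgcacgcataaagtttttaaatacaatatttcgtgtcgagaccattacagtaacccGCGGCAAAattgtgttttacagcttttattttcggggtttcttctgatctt
mcm-2: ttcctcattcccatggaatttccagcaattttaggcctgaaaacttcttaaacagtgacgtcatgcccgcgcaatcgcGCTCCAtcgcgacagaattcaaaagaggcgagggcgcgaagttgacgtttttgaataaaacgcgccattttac

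An E2F-type word lay within 75 bp of 4 of the 11 listed member summits, those of hcp-4, hcp-3, rnr-1 and efl-1 (36.4%), against 11.6% of the 335 listed summits near any protein-coding TSS. Of the 64 unlisted candidates near members 4.69% had such a word, against 3.71% of all unlisted candidates. The gap between word and summit was 12 bp at hcp-3, 21 bp at efl-1, 25 bp at rnr-1 and 35 bp at hcp-4. The word of efl-1 stands in the upstream sequence of a gene that itself encodes an E2F-type factor. The 4 words were chosen from textbook E2F sites without looking at these windows, and a match is a string of letters, not a shown binding site.

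In promoters, taken as 500 bp upstream to 100 bp downstream of any TSS of the gene, the words were frequent in members whether or not a peak was listed. A gene with more start sites was thus searched over more sequence. An E2F-type word was present in the promoters of 21 of 50 members (42.0%), against 11.0% of all protein-coding genes. By role it was present in 13 of 24 replication fork genes (54.2%), 4 of 14 cyclin, CDK and E2F genes (28.6%) and 4 of 12 kinetochore and cytokinesis genes (33.3%). Of the 21 members with a word, 4 had a listed peak (mcm-4, rpa-2, rnr-1 and efl-1) and 17 did not. Of the 29 without, 7 did and 22 did not. The genes hcp-3 and hcp-4 are among these 7, since their words near the summit lie more than 500 bp upstream. The listed summits of mcm-4 and rpa-2 had no such word within 75 bp. Among the 17 were mcm-5, mcm-6, orc-1, cdt-1, rfc-2 and cdk-2, near which the larger set ranked no peak at all.

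Among replication fork genes the highest member peak lay by rpa-2 (WBGene00019767, I:4770292-4771358, plus strand), which encodes a subunit of replication protein A, the complex that coats single-stranded DNA. The peak at I:4769552-4769811 had a signal of 179.7, rank 52 of the 465 listed peaks, with its summit 610 bp upstream of the TSS and between genes. Replicate 1 listed it with a signal of 120.4 (rank 62 of 18181, IDR 2.27e-05) and replicate 2 with 61.6 (rank 262 of 27101, IDR 0.000317). It was thus listed in both, at 0.341% and 0.967% of the ranked lists of replicates 1 and 2. Among the listed peaks of replicate 2 its signal was close to the median of 59.3. Of its surrounding sequence 30.7% was repetitive, which is the share of 24-mers out to 130 bp either side with at least 5 copies genome-wide and was the highest value among the listed member summits. The partner gene rpa-1, for another subunit of the same complex, had an unlisted candidate with a signal of 57.9, 509 bp upstream.

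The MCM helicase subunit gene mcm-4 (WBGene00003156, I:2318291-2321817, minus strand) had a listed peak at I:2318113-2318372 with a signal of 127.6, rank 134 of 465. It was listed in replicate 1 with a signal of 61.9 (rank 295, IDR 0.00249) and in replicate 2 with 62.2 (rank 257, IDR 0.000247). The summit does not lie at the start of the full gene. It is 408 bp downstream of the start of the short transcript Y39G10AR.14b.1 but 3574 bp downstream of the gene's 5′ end. It lies just past the 3′ end of mcm-4, outside the gene and this transcript, and falls in a 3′ UTR of the neighbour ekl-7. Counted from the gene's 5′ end alone, mcm-4 would have no listed peak.

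The other MCM genes differed from mcm-4. For mcm-2 (WBGene00003154, II:12001509-12006625, minus strand) the peak at II:12006756-12007015, 261 bp upstream of the TSS, had a signal of 122.9, close to that of mcm-4. It was listed in the conservative set with an IDR of 0.000521, while in the larger set its IDR was 0.129. Replicate 1 ranked it 333 with a signal of 59.3 and an IDR of 0.11, and replicate 2 ranked it 249 with a signal of 63.4 and an IDR of 0.928, so neither replicate listed a peak that stood high by signal in both. In the larger set mcm-3 and mcm-7 had candidates with signals of 52.6 and 43.5, and mcm-5 and mcm-6 had none.

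GINS joins the MCM ring in the active helicase, and all 3 of its genes on the list had a ranked peak in the larger set. For psf-3 (WBGene00022043, I:534455-535344, plus strand) the peak at I:535323-535582 was listed with a signal of 89.8, rank 323 of 465. Replicate 1 listed it with a signal of 59.0 (rank 338, IDR 0.00551), and replicate 2 ranked it 892 with a signal of 34.3 and an IDR of 0.13. Its summit is 998 bp downstream of the psf-3 TSS and past the gene's end, and the nearest TSS is that of icd-2, 338 bp away and downstream of the summit. The unlisted candidate of psf-1, at 135 bp upstream of the TSS, was the highest among members never listed, with a signal of 76.8 and an IDR of 0.0343. In the replicates psf-1 had 44.5 in replicate 1 (rank 741) and 28.4 in replicate 2 (rank 1833). The psf-2 candidate had a signal of 51.3 and lay 1368 bp upstream.

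Ribonucleotide reductase makes the deoxynucleotides for replication, and its large subunit is encoded by rnr-1 (WBGene00004391, III:9225339-9228798, minus strand). The rnr-1 peak at III:9228791-9229050, 123 bp upstream of the TSS, was listed in the larger set with a signal of 70.9, rank 443 of 465 and the lowest of the listed member peaks. Replicate 1 listed it with a signal of 62.8 (rank 283, IDR 0.00402), and replicate 2 ranked no overlapping peak. In the conservative set its IDR was 0.328. Of the 11 peaks it was the one with no counterpart in replicate 2. The small subunit gene rnr-2 had only a candidate with a signal of 45.1, 1544 bp downstream of the TSS.

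The genes for origin licensing, for the clamp and its loader and for polymerase and ligase had no listed peak in any of the 4 lists. In the larger set rfc-4, a subunit of the loader that opens the clamp around DNA, came nearest, with a candidate 172 bp upstream, a signal of 75.4 and an IDR of 0.0721. Replicate 2 ranked the rfc-4 candidate 419 with a signal of 45.7, and the best replicate 1 candidate, with 35.9 (rank 1497), lay elsewhere, 1982 bp downstream. For pcn-1, the sliding clamp itself (proliferating cell nuclear antigen), the best candidate had a signal of 62.3 and lay 1649 bp downstream of the TSS. It had 31.1 in replicate 2 (rank 1239). The best replicate 1 candidate, with 41.6 (rank 898), lay 1497 bp downstream and overlapped it by less than 50%. The licensing genes cdc-6 and orc-2 and the ligase gene lig-1 had candidates with signals of 52.4, 49.4 and 49.4. No candidate of the larger set lay near the licensing genes orc-1 and cdt-1, the clamp loader genes rfc-2 and rfc-3, or div-1, which encodes a subunit of polymerase alpha-primase.

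The tagged gene pole-4 had no ranked peak within 2000 bp in the larger or the conservative set. Replicate 1 ranked its best candidate 17699 of 18181 with a signal of 18.9 and an IDR of 0.954, and replicate 2 ranked another one 20236 of 27101 with 15.5 and an IDR of 0.638. The replicate 1 summit lay 1029 bp upstream of the TSS and the replicate 2 summit 562 bp downstream. Both stand in the lower part of their lists and at different places.

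Among the cell cycle regulators, cya-1 (WBGene00000863, III:9106699-9109272, minus strand), a cyclin A gene, had a listed peak at III:9110956-9111215 with a signal of 110.6, rank 198 of 465. Replicate 1 listed it with a signal of 65.7 (rank 254, IDR 0.00321) and replicate 2 with 48.0 (rank 380, IDR 0.004). Both replicates placed it 1.4% down their ranked lists. Its summit was 1814 bp upstream of the TSS, the farthest of the listed member summits, with no other protein-coding TSS within 2000 bp. The repeat share at cya-1 was 9.66%.

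Cyclin E, which drives entry into S phase, is encoded by cye-1 (WBGene00000871, I:6780799-6784397, plus strand). Its peak at I:6781739-6781998 had a signal of 88.1, rank 347 of 465, and a summit in a cye-1 intron 1063 bp downstream of the TSS. That summit falls inside a tRNA gene, WBGene00022955 (I:6781803-6781874, plus strand), 66 bp from the tRNA gene's 5′ end. Replicate 1 ranked the peak 433 with a signal of 53.7 and an IDR of 0.0171, and replicate 2 ranked it 897 with 34.2 and an IDR of 0.364, so it was listed only where both were combined. Whether the peak belongs to the tRNA gene or to cye-1 cannot be told apart at this distance. The repeat share there was 26.1%.

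The E2F-type factor gene efl-1 (WBGene00001161, V:16958590-16965675, minus strand) had a listed peak at V:16965746-16966005, its summit 201 bp upstream, and its signal of 92.7 ranked 297 of 465. Replicate 1 ranked it 477 with a signal of 51.6 and an IDR of 0.0295, and replicate 2 ranked it 527 with 40.9 and an IDR of 0.14. Neither replicate listed it. Of its partners, lin-35, the retinoblastoma family gene, had a candidate with a signal of 52.2 at 162 bp upstream, and dpl-1, the DP gene, had none in the larger set. The larger set also had none for efl-2, another E2F-type gene.

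One of the B-type cyclin genes, cyb-3 (WBGene00000868, V:15395696-15397353, plus strand), was listed in replicate 1 only. The peak at V:15395433-15395692 had its summit 133 bp upstream and a signal of 58.2 there (rank 345, IDR 0.00508), and replicate 2 ranked no overlapping peak. In the larger set its signal was 80.8 and its IDR 0.0109, just above the limit of 0.01. The other cyclin genes, cyb-1 and cyd-1, had candidates with signals of 35.6 and 38.2 in the larger set. Of the CDK genes, cdk-4 had a candidate with a signal of 54.2 and cdk-1 one with 37.5, whereas cdk-2, the CDK inhibitor gene cki-1 and the CDK-activating phosphatase gene cdc-25.1 had none.

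The kinetochore genes included the second highest member peak, by hcp-3 (WBGene00001831, III:9615306-9616470, minus strand), which encodes the centromeric histone CENP-A. The peak at III:9616950-9617209 had a signal of 128.6, rank 130 of 465, with its summit 610 bp upstream of the TSS and no other protein-coding TSS within reach. Its signal was 69.9 in replicate 1 (rank 213, IDR 0.00068), which listed it, as replicate 2 did with 53.6 (rank 315, IDR 0.000815). Its place was nearly the same in both, at 1.17% and 1.16% of the ranked lists. Its sequence holds the E2F-type word nearest to any listed member summit.

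The gene hcp-4 (WBGene00001832, I:3862833-3865938, minus strand) encodes CENP-C, which binds CENP-A chromatin and recruits the outer kinetochore. Its listed peak at I:3866494-3866753 had a signal of 102.8, rank 238 of 465, 686 bp upstream of the hcp-4 TSS and 917 bp upstream of that of pgk-1. In replicate 1 it was listed with a signal of 55.7 (rank 392, IDR 0.00454) and in replicate 2 with 47.4 (rank 390, IDR 0.00606). The gene hcp-1 (WBGene00001829, V:6594194-6599208, plus strand), for a CENP-F-like protein, had a listed peak at V:6593788-6594047 with a signal of 88.5, rank 336 of 465, 276 bp upstream of the TSS. Replicate 1 ranked that peak 609 with a signal of 47.5 and an IDR of 0.0274, and replicate 2 ranked it 857 with 34.6 and an IDR of 0.175. The CENP-A and CENP-C genes were thus listed in both replicates and hcp-1 in neither. Its relative hcp-2 had no ranked peak in the larger set.

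The outer kinetochore genes knl-1 and ndc-80 had candidates close to their starts that did not pass. That of ndc-80, a microtubule-binding subunit, had a signal of 71.9 and an IDR of 0.0274 at 310 bp upstream, with 32.3 in replicate 1 (rank 2330) and 37.3 in replicate 2 (rank 652). That of knl-1 had a signal of 59.7 at 177 bp upstream. Of the mitotic kinases, the checkpoint kinase gene bub-1 had a candidate with a signal of 66.6 and an IDR of 0.0611 at 158 bp upstream, with 37.2 in replicate 1 (rank 1307) and 33.0 in replicate 2 (rank 1017). The Polo kinase gene plk-1 and the Aurora kinase genes air-1 and air-2 had no ranked peak in the larger set.

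Centralspindlin, the complex that bundles the central spindle, is made of the kinesin ZEN-4 and the GTPase-activating protein CYK-4. The zen-4 gene (WBGene00006974, IV:6118215-6121777, plus strand) had a listed peak at IV:6117853-6118112 with a signal of 110.8, rank 196 of 465, 232 bp upstream of the TSS. Replicate 1 ranked it 562 with a signal of 49.1 and an IDR of 0.0139, and replicate 2 listed it with 62.5 (rank 254, IDR 0.00698), so replicate 2 placed it higher. A snoRNA gene, M03D4.78 (IV:6117751-6117876, minus strand), lies 107 bp from the summit, which is upstream of both genes' starts. The cyk-4 gene had only a candidate with a signal of 42.5, 882 bp downstream of its TSS.

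**Figure D3:**
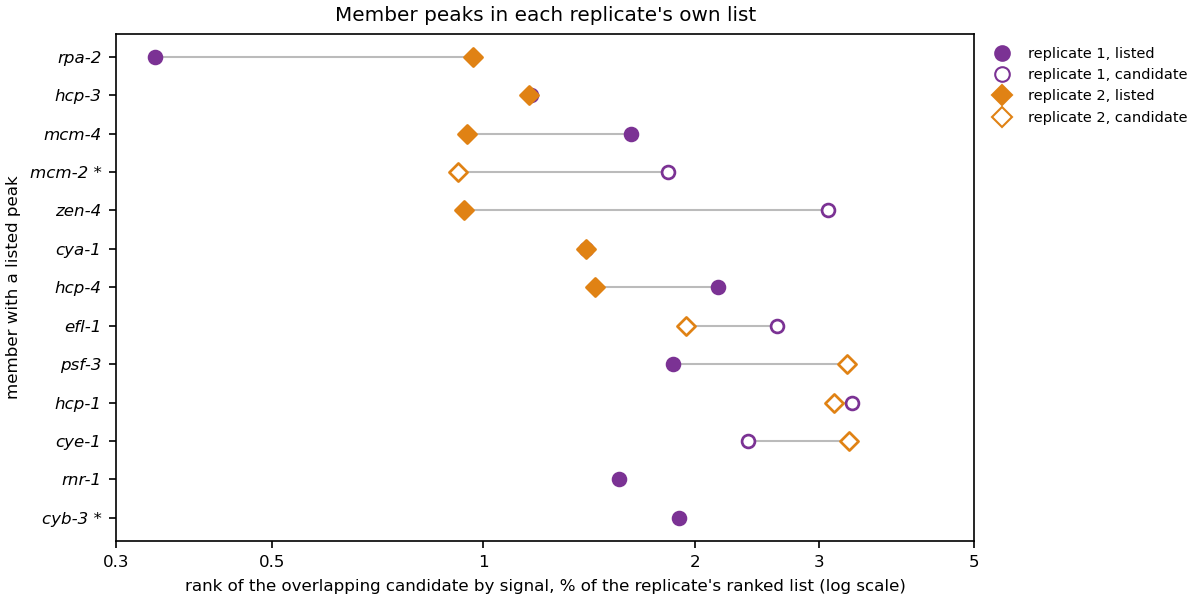
Rank by signal of each listed member peak in the ranked lists of replicates 1 and 2, as a percentage of the list on a log scale, for the 13 members (rows) with a listed peak in any list. Filled symbols are listed in that replicate and open ones are candidates; an asterisk marks genes not listed in the larger set. In 5 rows there are 2 filled symbols, which nearly coincide for hcp-3 and cya-1, and rnr-1 and cyb-3 have no overlapping peak in replicate 2.

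By height the listed member peaks were ordinary for the list. Their median signal was 102.8, with a range of 70.9 to 179.7, against a median of 101.9 for listed summits near any protein-coding TSS. The peaks of hcp-3 and mcm-4, with signals of 128.6 and 127.6, are neighbours in this order, as are those of zen-4 and cya-1, with 110.8 and 110.6. Between the replicates' ranks these neighbours swap places, so their order is not resolved. Taking the top 10% of the larger ranked list by signal, whether listed or not, 16 members (32.0%) had a summit there, against 4.67% of all genes; this limit was chosen after the lists were seen. The genes that this adds to the listed ones are mcm-2, psf-1, rfc-4, cyb-3 and ndc-80, and all of these summits lay between 133 and 310 bp upstream of a TSS.

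**Figure D4:**
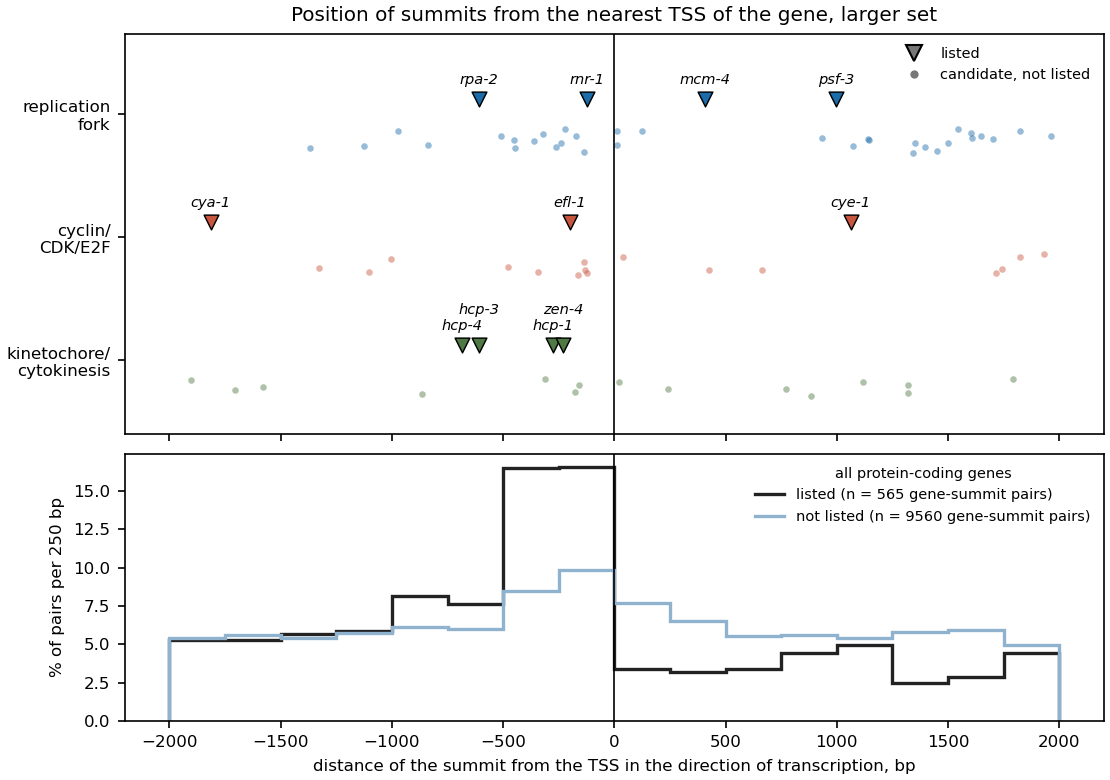
Distance in bp of each summit of the larger set from the nearest TSS of the gene, negative upstream. Top, member summits by role group, with triangles for listed peaks and dots for candidates; bottom, percentage of gene-summit pairs per 250 bp for all protein-coding genes. Of the 11 listed member summits, 4 lie between 500 bp upstream and 100 bp downstream of the TSS, 4 further upstream and 3 further downstream.

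The listed member summits lay about where listed summits lie in general. From 500 bp upstream to 100 bp downstream of the TSS were 4 of 11 (36.4%), against 34.9% of the 565 gene-summit pairs of all protein-coding genes. The median position was 232 bp upstream for members and 287 bp upstream for all genes. All 4 kinetochore and cytokinesis summits were upstream, while 2 of the 4 replication fork summits, those of mcm-4 and psf-3, were downstream. The strongest ranked peak of a member, listed or not, lay in this promoter window for 15 of the 33 members with one (45.5%), against 23.3% of the 6602 genes with one. By role this was so for 5 genes in each group. That is 5 of the 16 replication fork genes with a ranked peak (31.2%) and 5 of the 9 cyclin, CDK and E2F genes (55.6%). For the kinetochore and cytokinesis genes it is 5 of 8 (62.5%). The differences between the groups rest on few genes and were not tested.

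Short RNA genes (tRNA, snoRNA, snRNA, spliced leader RNA and rRNA) lay within 500 bp of 2 of the 11 listed member summits (18.2%), the tRNA gene at cye-1 and the snoRNA gene at zen-4, against 35.8% of the 335 listed summits near any protein-coding TSS. The replication fork genes had none. Of the 64 unlisted candidates near members 2 were that close to such a gene (3.12%), against 4.45% of all unlisted candidates near a protein-coding TSS. Both were by the central spindle genes, 389 bp from the snoRNA gene K08E3.11 at cyk-4 and 400 bp from M03D4.78 at zen-4. Without any summit near a short RNA gene, 9 members had a listed peak, against 1.79% of all genes.

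Other genes of the same processes were taken from lists that leave out the 50 members. Their share of listed genes lay between that of the members and that of all genes. The members and these other genes were both chosen with earlier results known, so this order is a description and not independent support. Of 115 such genes found in the annotation, 10 had a listed peak in the larger set (8.7%), against 22% of the members and 2.66% of all genes; the difference was not tested. They were 2 of 31 other replication genes (6.45%), 2 of 36 other cell cycle control genes (5.56%) and 6 of 48 other mitosis genes (12.5%). The highest was tim-1, for a Timeless-family fork protein, with a signal of 164.6 at 247 bp upstream, 54 bp from the spliced leader RNA gene sls-2.8. Next was lin-53, for a histone-binding protein of the RbAp family, with 124.2 at 269 bp upstream, though the TSS of nra-2 is nearer.

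The remaining replication and control genes were pola-1, for the catalytic subunit of polymerase alpha, with a signal of 83.8 at 109 bp upstream, and lin-54, for a DNA-binding subunit of the DREAM complex, with 86.3 at 342 bp upstream but nearer to the start of rpl-12. The mitosis genes were the kinesin gene bmk-1 with 111.9, the checkpoint gene czw-1 with 104.7, the centrosome scaffold gene spd-5 with 97.9, the anillin gene ani-1 with 96.2, the kinetochore gene kbp-4 with 92.9 and the checkpoint gene bub-3 with 70.3. Replicates 1 and 2 both listed the peaks of tim-1 and lin-53, and replicate 1 alone those of bmk-1, czw-1 and spd-5. The peaks of bmk-1, kbp-4 and bub-3 lay nearer to the start of another gene, that of kbp-4 in a 5′ UTR of rab-18 and 1 bp from the rab-18 start.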

How the data were processed

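ChIP-seq peaks of tagged Y53F4B.3 were analysed in 1 group with 2 biological replicates. Per the labels and the deposited read-me texts, peaks are on ce11 and were called per replicate and over both; thresholded lists draw on 1 more input file than ranked lists. The sources used here name neither aligner nor peak caller, and read depth is unknown. The deposited signal value and the IDR score (125 times the negative log2 IDR, capped at 1000) are scores the authors computed, and ranked lists hold the authors' −log10 of the global IDR, capped at 5. Each column was mapped to its list.

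Summits were placed on Ensembl release 115 genes with Python 3.11.15, pandas 2.3.3 and numpy 2.4.6. A peak was shared between replicates if the overlap reached 50% of the shorter interval. Placement was checked on simulated data, where 200 of 200 planted summits were recovered. The members, the gene lists and the rules were chosen with earlier results of these data known; GCTCCA was chosen after the windows were seen. Named are all members listed in any list, pole-4, the 5 highest unlisted members, and listed genes of the other lists; further members are named to account for all 50. No test was made. Alternatives covered distance, start sites, nearest gene, peak edge, list, replicate, IDR and short RNA genes. Ranked peaks that met the IDR limit of 0.01 but are not in the thresholded list, 149 in the larger set, counted as candidates. Counting them as listed added no member to the 11.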

Additional observations from a re-analysis of the deposited data

How the results depend on the processing

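The count of 11 listed members was 9 to 11 under 7 of the 11 alternatives, and the group counts and the share of all genes moved as follows. Within 1000 bp of a TSS, 9 members were listed, the cyclin, CDK and E2F count was 1 and the share of all genes 1.71%; within 500 bp, 5 members were listed, of which 2 were replication fork, 1 cyclin, CDK and E2F and 2 kinetochore and cytokinesis genes, against 1.1% of all genes. At an IDR of 0.001 or less, rpa-2, hcp-3, mcm-4 and zen-4 stayed, that is 4 members (2, 0 and 2 by group), against 1.42%. With either replicate left out, 6 to 8 members were listed, with 2 to 4 replication fork, 1 to 2 cyclin, CDK and E2F and 2 to 3 kinetochore and cytokinesis genes, against 1.31% to 1.87%; the lower count, 6, is that of replicate 2 alone. Assigning each summit to its nearest TSS removed psf-3 (10 members, 1.59%), and leaving out summits near short RNA genes removed cye-1 and zen-4 (9 members, 1.79%). Smaller windows, fewer peaks and a stricter limit lower counts by construction, and other causes were not tested. All 3 overlap rules gave 5 members shared between the replicates. No paired analysis was possible because there is 1 group. The number of replicates (2), the unknown depth and untagged worms not analysed here limit all counts.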

Other observations

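The word GCTCCA, picked after the windows around the member summits had been seen and searched on both strands, lay within 75 bp of the summit at 6 of the 13 loci with a listed peak: psf-3, cya-1, efl-1, hcp-1, mcm-2 and cyb-3. At efl-1 it covers the summit itself, and at mcm-2 it is 3 bp away. In the larger set 4 of the 11 listed member summits had it (36.4%), against 12.2% of the listed summits near any protein-coding TSS and 9.25% of all listed summits. Of the 64 unlisted candidates near members 17.2% had it, against 8.73% of all unlisted candidates. In promoters it was present in 21 of 50 members (42.0%), against 5051 of all 19985 protein-coding genes. By role it was present in 8 of 24 replication fork genes (33.3%) and 5 of 14 cyclin, CDK and E2F genes (35.7%). For the kinetochore and cytokinesis genes it was 8 of 12 (66.7%). These are shares of a word chosen on the same sequences and were not tested.

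The word TTTGAA was present in the promoters of 92.0% of members and 87.7% of all genes. Within 75 bp of the summit it lay at 6 of the 11 listed member summits (54.5%), against 31.0% of listed summits near any protein-coding TSS, and at 45.3% of the unlisted candidates near members, against 30.3% of all unlisted candidates. GAGAGA was present in the promoters of 44.0% of members and 37.9% of all genes, and at 2 of the 11 listed member summits (18.2%), against 14.3% of listed summits near any protein-coding TSS. These shares were not tested either. GGTTCGA, the core of the tRNA gene B box, lay within 75 bp of 0 of the 11 listed member summits, against 15.5% of listed summits near any protein-coding TSS and 17.2% of all listed summits. The window at cye-1 covers a whole tRNA gene and still held no exact match. Absence of this word thus does not mean that a summit is free of tRNA genes. By chromosome, 5 of the 13 members on chromosome I had a listed peak of the larger set and 0 of the 9 on chromosome II, against 3.79% and 2.64% of all genes there. The counts were 3 of 13 on III, 1 of 6 on IV, 2 of 8 on V and 0 of 1 on X. The shares of all genes on these were 3.48%, 3.38%, 1.72% and 1.57%. Such counts rest on few genes, and differences between chromosomes were not tested. The conservative set does list a peak on chromosome II, that of mcm-2.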
